A study of Homo sapiens with 6 samples.

Results

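The nuclear genes of the respiratory chain were followed through the conversion of human skin fibroblasts by the muscle transcription factor MyoD. They encode the subunits of the 5 complexes of the inner mitochondrial membrane and were taken by gene symbol alone. The symbols were those of the NDUFA, NDUFB, NDUFC, NDUFS and NDUFV families, SDHA to SDHD, the UQCR genes with CYC1, the COX4I, COX5, COX6, COX7 and COX8 genes, and the ATP5 genes without the inhibitor ATP5IF1. This gave 88 genes among the 23542 with a symbol, of which 37 belong to complex I, 4 to complex II, 10 to complex III, 19 to complex IV and 18 to complex V. NDUFA4 and NDUFA4L2 carry a complex I name and were counted with complex IV, to which NDUFA4 is known to belong. Left out were 1 pseudogene, 2 antisense or divergent RNAs and 2 readthrough genes.

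The cells were primary dermal fibroblasts from 1 human cell line, and each of 3 groups had 2 libraries, called biological duplicates in the design text. VP64-MyoD cells carried a Tet-ON lentivirus for mouse MyoD with the viral activation domain VP64 at its N-terminus, and WT-MyoD cells carried the same vector for unmodified mouse MyoD. Both transgenes were co-expressed with dsRed-Express2. Transduction in polybrene, puromycin selection and growth to confluence were followed in both populations by 3 µg/mL doxycycline for 10 days. Untreated fibroblasts were the negative control, and the labels do not say whether they had been transduced, selected or given doxycycline. In comparisons with untreated cells, MyoD therefore cannot be told apart from virus, polybrene, selection and doxycycline. VP64-MyoD and WT-MyoD cells share these treatments.

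The respiratory chain moves electrons from NADH through complex I, or from succinate through complex II, to ubiquinone, on to complex III and cytochrome c, and to oxygen at complex IV. Complexes I, III and IV pump protons, and complex V, the ATP synthase, uses the proton gradient to make ATP. Skeletal muscle is rich in mitochondria and uses muscle isoforms of some complex IV subunits, among them COX6A2 and COX7A1.

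RefSeq promoter windows of assembly GRCh38.p14, which run from 250 bases before the annotated start to 50 bases after it, were matched by symbol to 71 of the 88 genes. The 250 bases before the start are shown for a muscle isoform, its widely expressed counterpart and the gene whose window held all 3 motifs searched. The bases shown for COX6A2 lie at chr16:31428361-31428610 on the minus strand. Those for COX6A1 lie at chr12:120437863-120438112 and those for SDHD at chr11:112086623-112086872, both on the plus strand. Capitals mark the E-box CAGCTG, bound by MyoD and related factors, the ETS core CCGGAAG, and the NRF1 core GCATGCG, each searched on both strands. Other forms of the E-box were not searched, so E-box counts here mean CAGCTG alone.
COX6A2: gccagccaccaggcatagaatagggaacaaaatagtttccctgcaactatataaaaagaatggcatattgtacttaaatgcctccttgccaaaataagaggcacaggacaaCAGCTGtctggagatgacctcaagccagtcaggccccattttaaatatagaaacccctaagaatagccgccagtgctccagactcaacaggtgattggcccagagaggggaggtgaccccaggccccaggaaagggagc
COX6A1: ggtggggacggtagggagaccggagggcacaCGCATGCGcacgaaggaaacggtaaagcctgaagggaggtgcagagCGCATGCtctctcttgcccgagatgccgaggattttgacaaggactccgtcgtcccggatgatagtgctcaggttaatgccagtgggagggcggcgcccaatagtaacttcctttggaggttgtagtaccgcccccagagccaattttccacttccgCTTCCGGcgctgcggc
SDHD: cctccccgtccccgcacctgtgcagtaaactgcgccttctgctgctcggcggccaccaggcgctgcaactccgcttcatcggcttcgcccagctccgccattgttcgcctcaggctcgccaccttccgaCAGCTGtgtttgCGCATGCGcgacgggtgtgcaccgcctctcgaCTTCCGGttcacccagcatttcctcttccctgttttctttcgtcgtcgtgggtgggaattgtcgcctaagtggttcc
The COX6A2 window held 1 CAGCTG E-box, starting 139 bases before the gene's start, and neither other motif. The COX6A1 window held 1 ETS core, 16 bases before the start, and 3 matches to the NRF1 core, 2 of which overlap as the same letters read on both strands. The SDHD window held a CAGCTG E-box at 121 bases, an ETS core at 77 bases and an NRF1 core read on both strands from 109 bases before the start.

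The libraries held between 40997586 and 53804224 counts, and each read pair was counted as 2. Counts were summed over the transcripts of a gene and are given as TMM-scaled CPM, a level relative to the library's total count. No library was a copy of its duplicate, since the chi-square divided by its degrees of freedom was 5.66 between the VP64-MyoD libraries, 13.0 between the WT-MyoD libraries and 3.31 between the untreated libraries. The mouse Myod1 transgene had 5372 and 5056 counts in VP64-MyoD cells, 42900 and 41736 counts in WT-MyoD cells and 254 and 46 counts in untreated cells. All 8 skeletal muscle markers, among them MYOG and CKM, were higher with each MyoD form, and their summed level was 3118 and 2723 CPM in VP64-MyoD libraries, 323 and 291 CPM in WT-MyoD libraries and 4.29 and 4.00 CPM in untreated libraries. The 8 fibroblast markers summed to 32662 and 30090.0 CPM in VP64-MyoD libraries, 28899 and 33006 CPM in WT-MyoD libraries and 41375 and 43816 CPM in untreated libraries. Single fibroblast markers went both ways: 2 of 8 were higher and 5 lower with VP64-MyoD than in untreated cells, and 4 were higher and 2 lower with WT-MyoD. Markers of epithelial, endothelial, blood, melanocyte, cardiac and adipose cells had summed levels of at most 2.87 CPM per list and library, and HBB, TYR and UCP1 were at 0.

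With VP64-MyoD, most respiratory chain genes were modestly higher than in untreated fibroblasts. Their summed level was 2768 and 2795 CPM in VP64-MyoD libraries, 2309.8 and 2105 CPM in WT-MyoD libraries and 2123 and 2015 CPM in untreated libraries. Both VP64-MyoD libraries were above the other 4. Of the 84 genes that passed the filter on low counts, 60 were higher and 1, NDUFA4L2, was lower with VP64-MyoD (edgeR, Benjamini-Hochberg adjusted p under 0.05 over all features). Of all 15773 features tested, 33.0% were higher and 30.0% lower. The 60 include COX6A2, which had no count in untreated cells and passed the filter through the MyoD libraries alone. The median log2 fold change was 0.44 over the 84 genes, a 1.35-fold difference, against 0.03 over all features. Of the 60 higher genes, 46 were still called when any 1 of the 6 libraries was left out, and so was NDUFA4L2. Called higher and over 1.5-fold were 22 genes, or 26.2%, against 19.1% of all features, and over 2-fold 2 genes, or 2.38%, against 12.8% of all features. The VP64-MyoD libraries were both above the untreated ones in 73 genes, or 86.9%, and both below in 3, or 3.57%, against 43.2% and 40.0% of all features. Muscle markers rose in the same libraries, the summed fibroblast markers were lower and single ones went both ways, and their part in the result was not tested. In bulk RNA, a change in the share of cells of a type cannot be told apart from a change of RNA per cell.

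In WT-MyoD cells, calls ran in both directions. Of the 84 genes, 10 rose and 6 fell relative to untreated cells, against 25.7% and 22.2% of all features that were higher and lower. The median log2 fold change was 0.05, against 0.00 over all features. The higher genes were SDHA, SDHC, CYC1, UQCRC2, COX6A2, COX8A, ATP5F1A, ATP5F1B, ATP5F1C and ATP5MC1. Of these, COX6A2 had no count in untreated cells and passed the filter through the MyoD libraries alone. The lower genes were NDUFS4, NDUFS7, COX4I1, COX7A2L, NDUFA4L2 and ATP5MJ. Of these 16, SDHA, COX6A2, COX7A2L and NDUFA4L2 were still called when any 1 library was left out. Libraries of both groups overlapped for 48 genes, or 57.1%, against 28.6% of all features. The WT-MyoD libraries were both above the untreated ones in 24 genes, or 28.6%, and both below in 12, or 14.3%, against 36.2% and 35.2% of all features. Replicate spread was wide here and ran in 1 direction. Library 1 exceeded library 2 in 74 of 84 genes with WT-MyoD, with a median log2 ratio of 0.14, and in 69 of 84 genes in untreated cells, with a median log2 ratio of 0.10. In VP64-MyoD cells this held for 33 of 84 genes, with a median log2 ratio of -0.02. Over all features tested, these median ratios were 0.00 in VP64-MyoD, 0.01 in WT-MyoD and 0.00 in untreated cells. The number of higher genes was 4 without WT-MyoD replicate 1, 22 without WT-MyoD replicate 2 and 2 without untreated replicate 2. The number of lower genes was 11 without WT-MyoD replicate 1, 2 without WT-MyoD replicate 2 and 2 without untreated replicate 1.

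The fusion and the unmodified factor differed directly. In VP64-MyoD cells 63 of the 84 genes were higher and 1, SDHA, was lower than in WT-MyoD cells, against 28.4% and 28.2% of all features. The median log2 fold change was 0.40, a 1.32-fold difference, against 0.02 over all features, and 13 genes were called over 1.5-fold higher, or 15.5%, against 12.9% of all features. The VP64-MyoD libraries were both above the WT-MyoD ones in 74 genes, or 88.1%, and both below in 1, or 1.19%, against 39.9% and 38.3% of all features. The VP64-MyoD mean was the highest of the 3 groups in 78 of the 84 genes, or 92.9%, against 38.7% of all features. Of the 63 higher genes, 42 were still called when any 1 library was left out. SDHA lost its VP64-MyoD over WT-MyoD call without VP64-MyoD replicate 1 or replicate 2 (adjusted p between 0.066 and 0.074). The 2 forms also differed in transgene level, since WT-MyoD cells had several times the transgene counts of VP64-MyoD cells, and the form of MyoD cannot be told apart from its amount. This comparison and the one with untreated cells share the VP64-MyoD libraries.

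**Figure D1:**
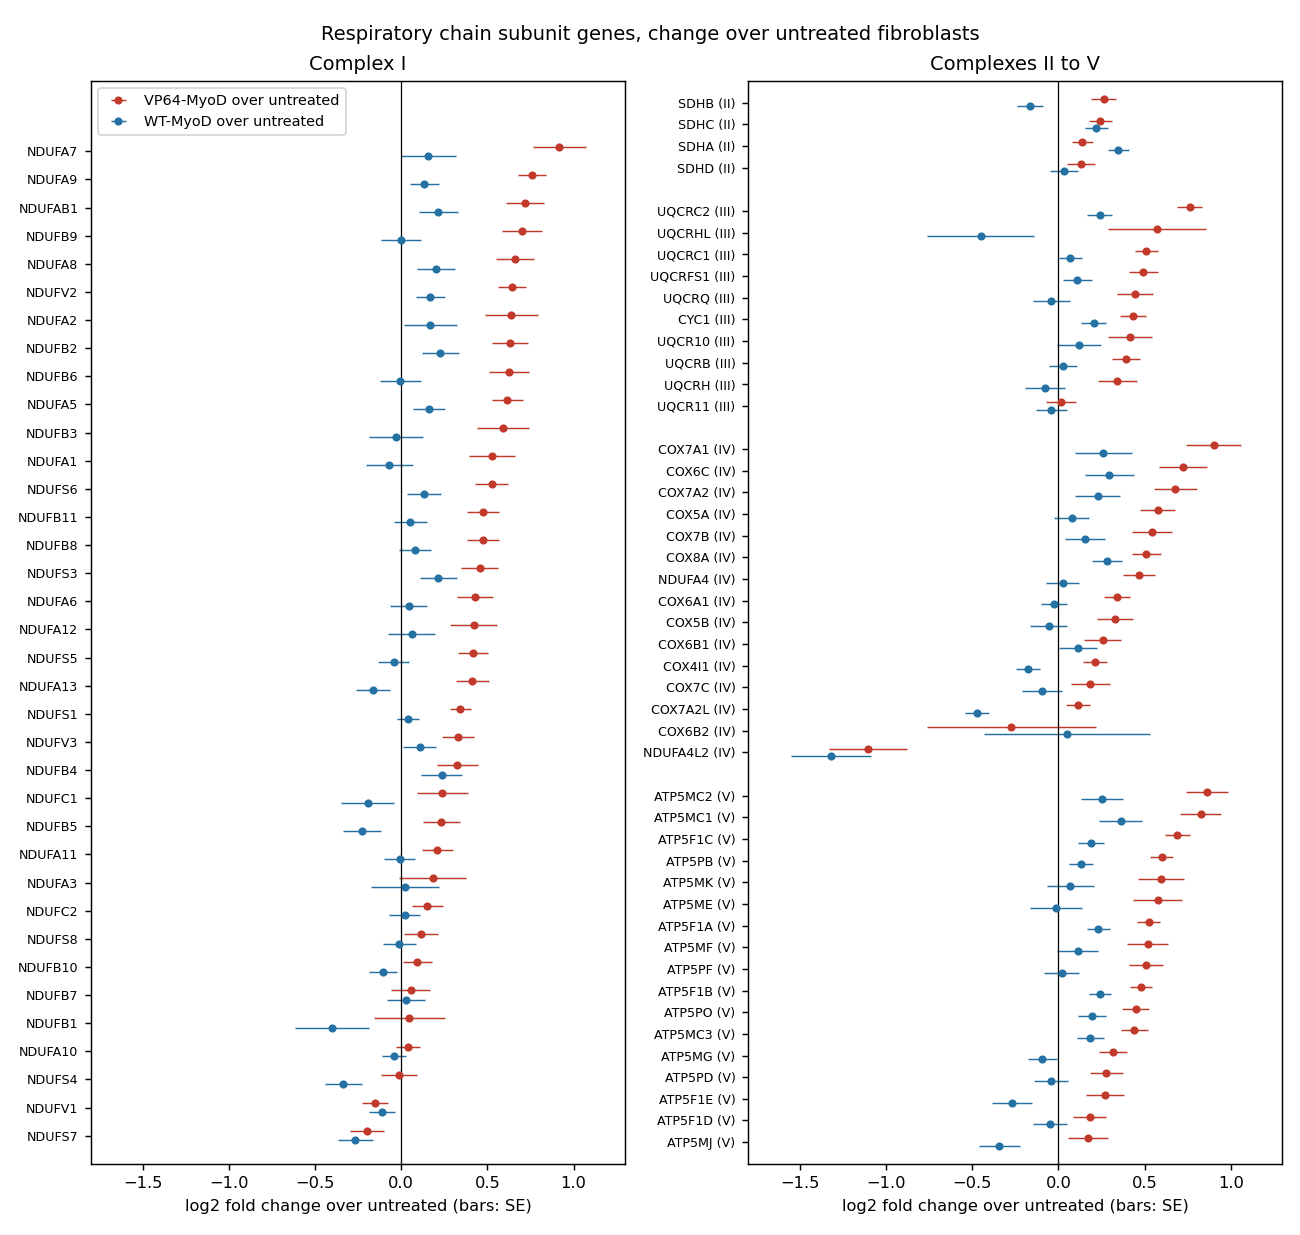
Log2 fold change of 82 of the 84 tested respiratory chain genes over untreated cells, with its SE, for VP64-MyoD (red) and WT-MyoD (blue), ordered within each complex by the VP64-MyoD value. COX6A2, which had no count in untreated cells, is not drawn. Most red points lie between 0 and 1 and most blue points near 0, and NDUFA4L2 lies far to the left for both forms.

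Complex I genes summed to 829.6 and 832 CPM in VP64-MyoD libraries, 659.7 and 595 CPM in WT-MyoD libraries and 637 and 606 CPM in untreated libraries. With VP64-MyoD 24 of 37 were higher and 0 lower against untreated cells, at a median log2 fold change of 0.42. Against WT-MyoD, 25 were higher and 0 lower, with a median of 0.40. In WT-MyoD against untreated cells, 0 were higher and 2, NDUFS4 and NDUFS7, were lower. Of all features, 33.0% were higher and 30.0% lower with VP64-MyoD than in untreated cells. These shares were 25.7% and 22.2% with WT-MyoD over untreated, and 28.4% and 28.2% with VP64-MyoD over WT-MyoD.

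The NDUFA genes encode accessory subunits. With VP64-MyoD 10 of 13 were higher than in untreated cells, against 33.0% of all features, with a median log2 fold change of 0.53. NDUFA7 and NDUFA9 had log2 fold changes of 0.92 and 0.76. NDUFAB1, the mitochondrial acyl carrier protein, had 12.7 and 12.4 CPM in VP64-MyoD cells, 9.39 and 8.22 CPM in WT-MyoD cells and 7.46 and 7.77 CPM in untreated cells, with no overlap between VP64-MyoD and the other groups (log2 fold change over untreated 0.72). Of the membrane-arm NDUFB genes 7 of 11 were higher, and of the NDUFS genes 5 of 8. NDUFB4, a membrane-arm subunit, had the highest WT-MyoD change in complex I, with 7.31 and 7.56 CPM in VP64-MyoD cells, 7.03 and 6.91 CPM in WT-MyoD cells and 5.73 and 6.14 CPM in untreated cells, and that change was not called (log2 fold change 0.23, edgeR adjusted p = 0.122). Among the NDUFV genes, NDUFV2 was higher with VP64-MyoD than in untreated cells (log2 fold change 0.65), while NDUFV1, the NADH- and flavin-binding subunit, had a log2 fold change of -0.15 that was not called.

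NDUFV1 showed 45.9 and 44.1 CPM in VP64-MyoD cells, 48.3 and 44.1 CPM in WT-MyoD cells and 52.5 and 47.4 CPM in untreated cells. Its libraries overlapped between the MyoD forms, and it had the lowest VP64-MyoD over WT-MyoD value of complex I (log2 fold change -0.04, SE 0.07). NDUFS7, an iron-sulfur core subunit, had 11.9 and 10.8 CPM in VP64-MyoD cells, 11.2 and 10.5 CPM in WT-MyoD cells and 13.3 and 12.7 CPM in untreated cells. It was lower with WT-MyoD than in untreated cells (-0.27 on the log2 scale with SE 0.10, edgeR adjusted p = 0.0389), and the VP64-MyoD value of -0.20 was not called. NDUFS4, an accessory subunit of the electron-input arm, had 10.9 and 10.9 CPM in VP64-MyoD cells, 9.01 and 8.42 CPM in WT-MyoD cells and 11.5 and 10.5 CPM in untreated cells. It fell with WT-MyoD by 0.34 on the log2 scale (edgeR adjusted p = 0.0155) and was higher in VP64-MyoD than in WT-MyoD cells (log2 fold change 0.32). NDUFS7 lost its WT-MyoD over untreated call without VP64-MyoD replicate 1 or replicate 2, WT-MyoD replicate 2 or untreated replicate 1 or replicate 2, with DESeq2 or in a fit of 2 groups alone (adjusted p between 0.0526 and 0.183). The NDUFS4 call for WT-MyoD over untreated was lost without WT-MyoD replicate 2 or untreated replicate 1 (adjusted p between 0.0584 and 0.137). The VP64-MyoD over WT-MyoD call of NDUFS4 was lost without VP64-MyoD replicate 1 or replicate 2 or WT-MyoD replicate 2 (adjusted p between 0.0667 and 0.074). NDUFB1, a small membrane-arm subunit, had 2.24 and 2.75 CPM in VP64-MyoD cells, 1.73 and 1.95 CPM in WT-MyoD cells and 2.69 and 2.14 CPM in untreated cells, with the lowest WT-MyoD change of the complex, -0.40 ± 0.21 (log2 fold change ± SE), which was not called.

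Complex II, succinate dehydrogenase, belongs both to the chain and to the tricarboxylic acid cycle. Its summed level was 250.4 and 249.6 CPM in VP64-MyoD libraries, 261 and 240.0 CPM in WT-MyoD libraries and 223 and 217 CPM in untreated libraries, so the VP64-MyoD values lay between the WT-MyoD values. SDHA, the flavoprotein subunit that oxidises succinate, had 97.2 and 96.7 CPM in VP64-MyoD cells, 114 and 110.1 CPM in WT-MyoD cells and 90.4 and 85.8 CPM in untreated cells. The WT-MyoD libraries were highest and the untreated ones lowest, with no overlap. SDHA was higher with WT-MyoD than in untreated cells (0.35 on the log2 scale with SE 0.06, edgeR adjusted p = 0.000218) and lower in VP64-MyoD than in WT-MyoD cells (-0.21 on the log2 scale with SE 0.06, edgeR adjusted p = 0.00873). SDHA lost its VP64-MyoD over WT-MyoD call without VP64-MyoD replicate 1 or replicate 2 (adjusted p between 0.066 and 0.074). The VP64-MyoD over untreated value was not called (log2 fold change 0.14, edgeR adjusted p = 0.0633).

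SDHB, the iron-sulfur subunit that binds SDHA, had 40.6 and 40.0 CPM in VP64-MyoD cells, 31.4 and 28.5 CPM in WT-MyoD cells and 33.2 and 33.9 CPM in untreated cells. Here the VP64-MyoD libraries were highest and the WT-MyoD libraries lowest. SDHB was higher with VP64-MyoD than in untreated cells (0.26 on the log2 scale with SE 0.07, edgeR adjusted p = 0.00559) and than in WT-MyoD cells (0.43 on the log2 scale with SE 0.07, edgeR adjusted p = 0.00015), and the WT-MyoD over untreated value of -0.16 was not called. SDHB lost its VP64-MyoD over untreated call without untreated replicate 1 (adjusted p = 0.0538). The membrane anchor SDHC had 69.6 and 67.5 CPM in VP64-MyoD cells, 71.0 and 63.9 CPM in WT-MyoD cells and 59.0 and 56.8 CPM in untreated cells. It was higher than untreated with VP64-MyoD (log2 fold change 0.24) and with WT-MyoD (0.22), and the 2 MyoD forms overlapped. SDHC lost its VP64-MyoD over untreated call without VP64-MyoD replicate 1 or untreated replicate 2 (adjusted p between 0.057 and 0.0707). The SDHC call for WT-MyoD over untreated was lost without WT-MyoD replicate 1 or untreated replicate 1 or replicate 2 or from the top transcript alone (adjusted p between 0.0562 and 0.443). The anchor SDHD had 43.0 and 45.3 CPM in VP64-MyoD cells, 45.0 and 37.6 CPM in WT-MyoD cells and 40.7 and 40.1 CPM in untreated cells and was not called in any comparison, with log2 fold changes of 0.13 for VP64-MyoD over untreated, 0.03 for WT-MyoD over untreated and 0.10 between the forms.

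Complex III genes summed to 347 and 349 CPM in VP64-MyoD libraries, 281 and 252 CPM in WT-MyoD libraries and 257 and 239.8 CPM in untreated libraries. With VP64-MyoD 8 of 10 were higher and 0 lower against untreated cells, at a median log2 fold change of 0.44, and 8 were higher and 0 lower than in WT-MyoD cells. In WT-MyoD cells 2 of 10 rose and 0 fell relative to untreated cells. The core protein UQCRC2 had 81.0 and 82.7 CPM in VP64-MyoD cells, 60.9 and 53.0 CPM in WT-MyoD cells and 47.5 and 49.2 CPM in untreated cells. The 3 groups did not overlap. UQCRC2 was 1.70-fold higher with VP64-MyoD than in untreated cells (0.76 on the log2 scale with SE 0.07, edgeR adjusted p = 2.1e-07), with a WT-MyoD over untreated log2 fold change of 0.24 and 0.52 between the forms. The UQCRC2 call for WT-MyoD over untreated was lost without WT-MyoD replicate 1 or untreated replicate 1 or replicate 2 (adjusted p between 0.0557 and 0.119).

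CYC1, the cytochrome c1 that hands electrons to cytochrome c, had 49.0 and 52.2 CPM in VP64-MyoD cells, 45.5 and 40.8 CPM in WT-MyoD cells and 38.4 and 36.6 CPM in untreated cells. Its groups were also apart, with log2 fold changes over untreated of 0.43 for VP64-MyoD and 0.20 for WT-MyoD. The CYC1 call for WT-MyoD over untreated was lost without VP64-MyoD replicate 1 or replicate 2, WT-MyoD replicate 1 or untreated replicate 1 or replicate 2, with DESeq2 or in a fit of 2 groups alone (adjusted p between 0.0536 and 0.22). The VP64-MyoD over WT-MyoD call of CYC1 was lost without VP64-MyoD replicate 2 or WT-MyoD replicate 2 (adjusted p between 0.108 and 0.165). UQCR11, a small subunit, had 25.2 and 23.8 CPM in VP64-MyoD cells, 24.9 and 22.2 CPM in WT-MyoD cells and 25.8 and 22.7 CPM in untreated cells and was not called in any comparison, with a log2 fold change of 0.01 for VP64-MyoD over untreated. UQCRHL, a near copy of the hinge protein gene UQCRH with which it can share reads, had 1.29 and 1.37 CPM in VP64-MyoD cells, 0.671 and 0.632 CPM in WT-MyoD cells and 0.882 and 0.909 CPM in untreated cells. It was higher in VP64-MyoD than in WT-MyoD cells (1.02 on the log2 scale with SE 0.29, edgeR adjusted p = 0.00799), and its count is uncertain because of these shared reads. UQCRHL lost its VP64-MyoD over WT-MyoD call without VP64-MyoD replicate 2 (adjusted p = 0.0575).

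**Figure D2:**
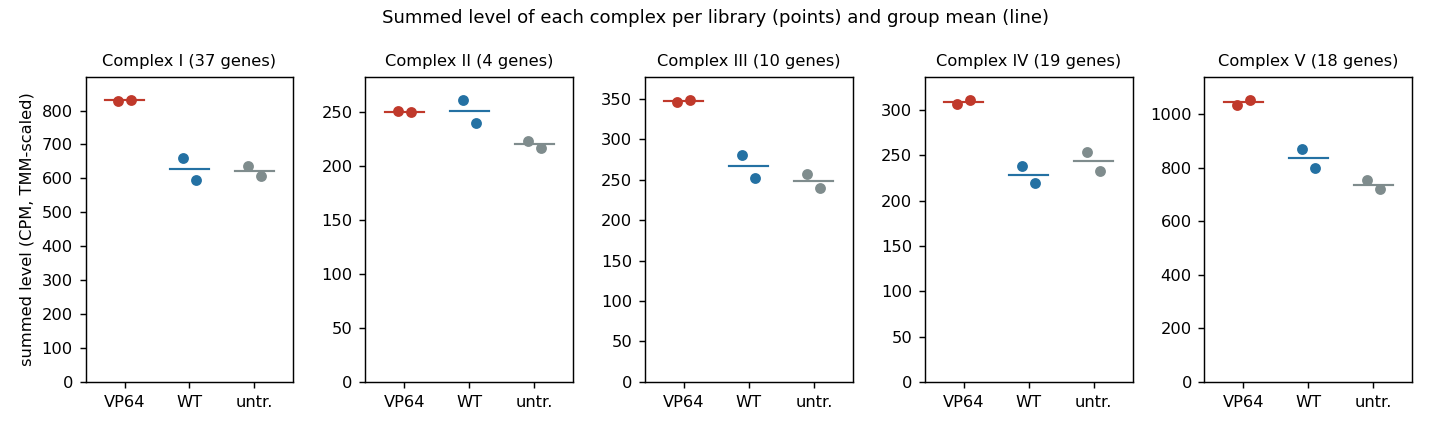
Summed CPM of the genes of each complex per library (points; short lines are means of 2 libraries), with VP64-MyoD in red, WT-MyoD in blue and untreated in grey. In complexes I, III, IV and V both VP64-MyoD libraries are above the other 4, whereas in complex II they lie between the WT-MyoD libraries.

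Complex IV, cytochrome c oxidase, had nuclear genes that summed to 307 and 312 CPM in VP64-MyoD libraries, 238 and 219 CPM in WT-MyoD libraries and 254 and 233 CPM in untreated libraries. With VP64-MyoD 11 of 16 tested genes rose and 1 fell relative to untreated cells, against 33.0% and 30.0% of all features. In VP64-MyoD cells 13 were higher and 0 lower than in WT-MyoD cells, against 28.4% and 28.2% of all features. In WT-MyoD cells 2, or 12.5%, rose and 3, or 18.75%, fell relative to untreated cells, against 25.7% and 22.2% of all features. COX6A2, the heart and skeletal muscle isoform of subunit VIa, had 6.71 and 6.26 CPM in VP64-MyoD cells, 1.27 and 1.36 CPM in WT-MyoD cells and no count in either untreated library. Taking 3 read pairs over both untreated libraries as the floor, COX6A2 was at least 101-fold higher with VP64-MyoD and at least 20.6-fold higher with WT-MyoD. These levels rest on 320 read pairs with VP64-MyoD and 64 with WT-MyoD. COX6A2 was 4.93-fold higher in VP64-MyoD than in WT-MyoD cells (2.30 on the log2 scale with SE 0.19, edgeR adjusted p = 1.08e-07). The floor covers counting error only, and COX6A2 passed the filter through the MyoD libraries alone.

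COX6A1, the isoform of the same subunit in most tissues, had 28.6 and 28.7 CPM in VP64-MyoD cells, 22.5 and 21.8 CPM in WT-MyoD cells and 22.7 and 22.5 CPM in untreated cells. It was higher with VP64-MyoD than in untreated cells (0.34 on the log2 scale with SE 0.07, edgeR adjusted p = 0.00102), and the WT-MyoD and untreated libraries overlapped. COX7A1, the muscle isoform of subunit VIIa, had 4.86 and 4.54 CPM in VP64-MyoD cells, 2.97 and 3.07 CPM in WT-MyoD cells and 2.49 and 2.54 CPM in untreated cells. The VP64-MyoD libraries were highest, and COX7A1 was 1.87-fold higher than in untreated cells (0.90 on the log2 scale with SE 0.16, edgeR adjusted p = 0.000146) and 1.56-fold higher than in WT-MyoD cells (log2 fold change 0.64, SE 0.15). Its WT-MyoD over untreated value of 0.26 was not called. COX7A2, its widely expressed counterpart, had 13.0 and 14.5 CPM in VP64-MyoD cells, 10.5 and 9.63 CPM in WT-MyoD cells and 9.74 and 7.41 CPM in untreated cells. It was also higher with VP64-MyoD (log2 fold change over untreated 0.68, SE 0.12). COX7A1, unlike COX6A2, was thus detected in untreated fibroblasts. The changes of COX7A1 and COX7A2 were not tested against each other.

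NDUFA4L2, a paralog of the complex IV subunit NDUFA4 that is known as a hypoxia-induced gene, was the only member called lower than untreated with VP64-MyoD, and it was called lower with WT-MyoD too. It had 1.29 and 1.14 CPM in VP64-MyoD cells, 1.02 and 1.07 CPM in WT-MyoD cells and 2.77 and 2.45 CPM in untreated cells. Both untreated libraries were above all 4 MyoD libraries, and the difference between the MyoD forms was not called (log2 fold change 0.22, SE 0.25). Its log2 fold change over untreated was -1.10 with VP64-MyoD (SE 0.23, edgeR adjusted p = 0.000538) and -1.32 with WT-MyoD (SE 0.23, edgeR adjusted p = 0.000199). NDUFA4 itself had 21.6 and 22.5 CPM in VP64-MyoD cells, 16.9 and 15.6 CPM in WT-MyoD cells and 17.2 and 14.8 CPM in untreated cells and was higher with VP64-MyoD than in untreated cells (log2 fold change 0.47), with a WT-MyoD value of 0.02 that was not called.

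COX4I1, the widely expressed isoform of the regulatory subunit IV, had 65.7 and 67.4 CPM in VP64-MyoD cells, 53.2 and 48.2 CPM in WT-MyoD cells and 59.5 and 55.3 CPM in untreated cells. The WT-MyoD libraries were lowest and the VP64-MyoD libraries highest. COX4I1 was higher with VP64-MyoD than in untreated cells (0.21 on the log2 scale with SE 0.07, edgeR adjusted p = 0.0149) and lower with WT-MyoD (-0.18 on the log2 scale with SE 0.07, edgeR adjusted p = 0.0491), and the forms differed directly (0.39 on the log2 scale with SE 0.07, edgeR adjusted p = 0.000208). COX4I1 lost its VP64-MyoD over untreated call without VP64-MyoD replicate 1 or replicate 2 or untreated replicate 2 (adjusted p between 0.0532 and 0.172). The COX4I1 call for WT-MyoD over untreated was lost without VP64-MyoD replicate 1 or replicate 2, WT-MyoD replicate 2 or untreated replicate 1 or replicate 2, with RLE size factors, with DESeq2, with limma-voom, in a fit of 2 groups alone or from the top transcript alone (adjusted p between 0.0506 and 0.321).

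COX7A2L, which is known to take part in supercomplex assembly, had 61.3 and 57.4 CPM in VP64-MyoD cells, 40.4 and 38.7 CPM in WT-MyoD cells and 56.7 and 53.0 CPM in untreated cells. It was lower with WT-MyoD than in untreated cells (-0.47 on the log2 scale with SE 0.07, edgeR adjusted p = 3.75e-05) and higher in VP64-MyoD than in WT-MyoD cells (log2 fold change 0.58), and its VP64-MyoD over untreated value was 0.11, not called. COX8A, the widely expressed isoform of subunit VIII, had 21.2 and 21.4 CPM in VP64-MyoD cells, 18.9 and 17.4 CPM in WT-MyoD cells and 15.3 and 14.5 CPM in untreated cells, with log2 fold changes over untreated of 0.51 for VP64-MyoD and 0.28 for WT-MyoD. The COX8A call for WT-MyoD over untreated was lost without WT-MyoD replicate 1 or untreated replicate 2 (adjusted p between 0.0794 and 0.109). The VP64-MyoD over WT-MyoD call of COX8A was lost without VP64-MyoD replicate 1 or replicate 2 or WT-MyoD replicate 2 or with DESeq2 (adjusted p between 0.0783 and 0.155). COX7B, which encodes subunit VIIb, had 8.81 and 9.31 CPM in VP64-MyoD cells, 6.67 and 7.20 CPM in WT-MyoD cells and 6.25 and 6.18 CPM in untreated cells and was higher with VP64-MyoD than in untreated cells (log2 fold change 0.54) and in WT-MyoD cells (0.39). The COX7B call for VP64-MyoD over WT-MyoD was lost without VP64-MyoD replicate 2 (adjusted p = 0.0755). COX6B1, which encodes subunit VIb, had 12.8 and 12.9 CPM in VP64-MyoD cells, 12.6 and 10.6 CPM in WT-MyoD cells and 11.3 and 10.1 CPM in untreated cells. Its testis isoform COX6B2 had 0.473 and 0.305 CPM in VP64-MyoD cells, 0.318 and 0.681 CPM in WT-MyoD cells and 0.521 and 0.409 CPM in untreated cells, and neither gene was called in any comparison. COX4I2, the lung isoform of subunit IV, and the isoforms COX7B2 and COX8C had no count in any of the 6 libraries.

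**Figure D3:**
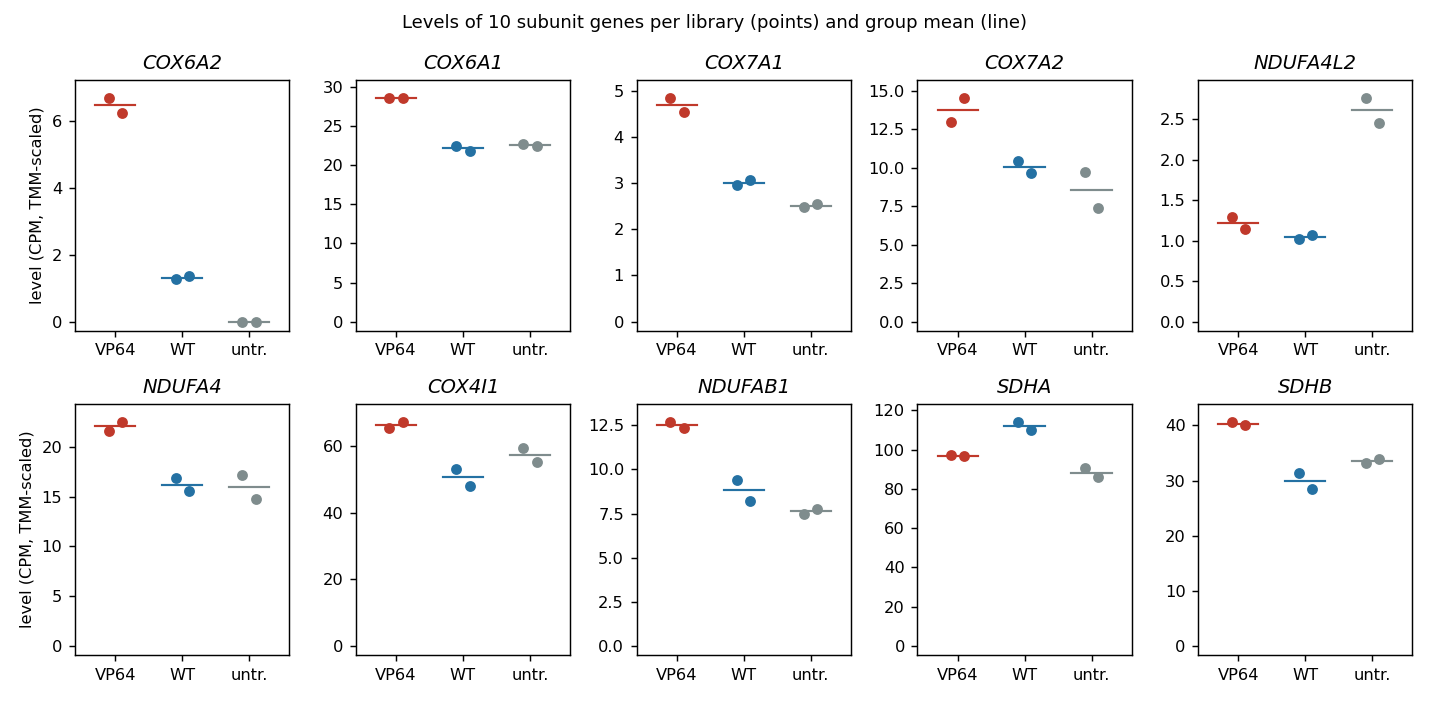
CPM of 10 subunit genes per library (points; short lines are means of 2 libraries), with VP64-MyoD in red, WT-MyoD in blue and untreated in grey. COX6A2 is at 0 in both untreated libraries, NDUFAB1 is highest in both VP64-MyoD libraries, NDUFA4L2 is high in both untreated libraries and SDHA is highest in both WT-MyoD libraries.

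Complex V genes summed to 1034 and 1053 CPM in VP64-MyoD libraries, 869 and 799 CPM in WT-MyoD libraries and 752 and 719 CPM in untreated libraries. With VP64-MyoD 15 of 17 tested genes were higher and 0 lower against untreated cells, at a median log2 fold change of 0.51. Relative to WT-MyoD cells, 16 were higher and 0 lower. The shares of all features were 33.0% and 30.0% against untreated cells, and 28.4% and 28.2% against WT-MyoD cells. In WT-MyoD cells 4, or 23.5%, rose and 1, or 5.88%, fell relative to untreated cells. Of all features 25.7% rose and 22.2% fell, so the share that rose was near that of all features. The catalytic subunit ATP5F1B had 376 and 353 CPM in VP64-MyoD cells, 317 and 301 CPM in WT-MyoD cells and 266 and 258 CPM in untreated cells. The groups did not overlap, with log2 fold changes over untreated of 0.48 for VP64-MyoD and 0.24 for WT-MyoD. ATP5F1A, the other subunit of the catalytic ring, had 252 and 272 CPM in VP64-MyoD cells, 224 and 203 CPM in WT-MyoD cells and 182 and 182 CPM in untreated cells, and the groups were again apart. ATP5F1C, the gamma subunit of the central stalk, had 60.2 and 65.5 CPM in VP64-MyoD cells, 46.6 and 42.2 CPM in WT-MyoD cells and 40.0 and 37.9 CPM in untreated cells, with log2 fold changes over untreated of 0.69 for VP64-MyoD and 0.19 for WT-MyoD. ATP5F1B lost its WT-MyoD over untreated call without untreated replicate 2 (adjusted p = 0.0775). The ATP5F1B call for VP64-MyoD over WT-MyoD was lost without VP64-MyoD replicate 1 (adjusted p = 0.0972). The WT-MyoD over untreated call of ATP5F1A was lost without untreated replicate 1 or replicate 2 (adjusted p between 0.0751 and 0.0808). The ATP5F1C call for WT-MyoD over untreated was lost without VP64-MyoD replicate 1 or replicate 2, WT-MyoD replicate 1 or untreated replicate 1 or replicate 2, with DESeq2, with limma-voom, in a fit of 2 groups alone or from the top transcript alone (adjusted p between 0.0509 and 0.299).

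ATP5MC1, ATP5MC2 and ATP5MC3 encode the same mature c subunit of the rotating ring from 3 genes. ATP5MC2 had 35.6 and 41.3 CPM in VP64-MyoD cells, 27.3 and 23.0 CPM in WT-MyoD cells and 24.1 and 18.1 CPM in untreated cells and was 1.82-fold higher with VP64-MyoD than in untreated cells (0.86 on the log2 scale with SE 0.12, edgeR adjusted p = 1.37e-05), while its WT-MyoD value of 0.25 was not called. ATP5MC1 had 8.73 and 9.81 CPM in VP64-MyoD cells, 6.78 and 6.67 CPM in WT-MyoD cells and 5.33 and 5.14 CPM in untreated cells, with log2 fold changes over untreated of 0.82 for VP64-MyoD and 0.36 for WT-MyoD, the highest WT-MyoD value of the complex. ATP5MC3 had 54.5 and 52.8 CPM in VP64-MyoD cells, 48.4 and 41.2 CPM in WT-MyoD cells and 39.4 and 39.6 CPM in untreated cells, with a VP64-MyoD over untreated log2 fold change of 0.44. All 3 were higher in VP64-MyoD than in WT-MyoD cells. The ATP5MC1 call for WT-MyoD over untreated was lost without WT-MyoD replicate 1 or untreated replicate 1 or replicate 2, with DESeq2 or from the top transcript alone (adjusted p between 0.0607 and 0.185). The VP64-MyoD over WT-MyoD call of ATP5MC1 was lost without VP64-MyoD replicate 2 or from the top transcript alone (adjusted p between 0.0576 and 0.0631). ATP5MC3 lost its VP64-MyoD over WT-MyoD call without VP64-MyoD replicate 1 or WT-MyoD replicate 2 (adjusted p between 0.0749 and 0.104).

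ATP5F1D, the delta subunit of the central stalk, had 17.8 and 17.8 CPM in VP64-MyoD cells, 16.0 and 14.3 CPM in WT-MyoD cells and 16.7 and 14.6 CPM in untreated cells and was not called in any comparison. ATP5MJ, a small membrane subunit, had 9.03 and 8.93 CPM in VP64-MyoD cells, 6.67 and 5.84 CPM in WT-MyoD cells and 8.34 and 7.59 CPM in untreated cells. Its WT-MyoD libraries were lowest, below untreated (-0.34 on the log2 scale with SE 0.12, edgeR adjusted p = 0.0275) and below VP64-MyoD (VP64-MyoD over WT-MyoD log2 fold change 0.52), and its VP64-MyoD over untreated value of 0.17 was not called. ATP5MJ lost its WT-MyoD over untreated call without WT-MyoD replicate 2 or untreated replicate 1, with DESeq2 or from the top transcript alone (adjusted p between 0.0667 and 0.174). ATP5MGL, a paralog of the g subunit gene, had 0.0430 and 0.0763 CPM in VP64-MyoD cells, 0 and 0.0487 CPM in WT-MyoD cells and 0.0401 and 0.136 CPM in untreated cells and did not pass the filter. The inhibitor of the synthase, ATP5IF1, which is not a subunit gene, had 16.6 and 16.6 CPM in VP64-MyoD cells, 14.7 and 12.1 CPM in WT-MyoD cells and 9.70 and 10.5 CPM in untreated cells, with log2 fold changes over untreated of 0.72 for VP64-MyoD and 0.41 for WT-MyoD. The ATP5IF1 call for WT-MyoD over untreated was lost without WT-MyoD replicate 1 or untreated replicate 1 (adjusted p between 0.0689 and 0.0729).

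Of all features, 33.0% were higher and 30.0% lower with VP64-MyoD than in untreated cells, 25.7% and 22.2% with WT-MyoD than in untreated cells, and 28.4% and 28.2% with VP64-MyoD against WT-MyoD. Of 51 assembly factors, 24 were higher and 8 lower with VP64-MyoD than in untreated cells, with a median log2 fold change of 0.26, and 7 were higher and 9 lower in WT-MyoD than in untreated cells. COX17, the copper chaperone of complex IV, had 3.18 and 3.05 CPM in VP64-MyoD cells, 1.66 and 1.12 CPM in WT-MyoD cells and 1.52 and 1.00 CPM in untreated cells (VP64-MyoD over untreated log2 fold change 1.29, SE 0.25). SDHAF3, an assembly factor of complex II, was higher with VP64-MyoD than in untreated cells (log2 fold change 0.90), and COX19, another factor of copper delivery, was lower (log2 fold change -0.85). With WT-MyoD the greatest changes were those of the complex IV factor COA4 (0.97), COX19 (-0.72) and TMEM70 (0.63), a factor of complex V assembly. Against WT-MyoD, 14 assembly factors, or 27.5%, were higher and 3, or 5.88%, lower with VP64-MyoD, and the 27.5% is near the share of all features. The greatest changes were those of COX17 (1.14), COA6 of copper delivery (0.86) and the complex I factor NDUFAF2 (0.84). The VP64-MyoD over untreated call of SDHAF3 was lost without VP64-MyoD replicate 2 or untreated replicate 1 (adjusted p between 0.0576 and 0.153).

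Of 17 genes of mobile carriers and their partners, 10 were higher and 1 lower with VP64-MyoD than in untreated cells. With WT-MyoD 7 were higher and 0 lower. The shares of all features higher and lower than in untreated cells were 33.0% and 30.0% with VP64-MyoD and 25.7% and 22.2% with WT-MyoD. Between the forms they were 28.4% and 28.2%. CYCS, the cytochrome c that carries electrons between complexes III and IV, had 57.0 and 61.0 CPM in VP64-MyoD cells, 36.3 and 32.8 CPM in WT-MyoD cells and 33.1 and 31.4 CPM in untreated cells. Only the VP64-MyoD libraries stood apart (log2 fold change over untreated 0.87, over WT-MyoD 0.77). PDSS1, which makes the side chain of ubiquinone, was higher with VP64-MyoD (1.25) and with WT-MyoD (0.84) than in untreated cells. PDSS1 lost its WT-MyoD over untreated call without WT-MyoD replicate 1 or untreated replicate 1 (adjusted p between 0.0517 and 0.0803). Between the forms 8 genes were higher and 1, COQ8A of ubiquinone synthesis, was lower with VP64-MyoD (log2 fold change -0.74). Of 13 genes of the tricarboxylic acid cycle, 9 were higher and 1 lower with VP64-MyoD and 6 were higher and 0 lower with WT-MyoD than in untreated cells. IDH3A, a subunit of NAD-dependent isocitrate dehydrogenase, had 42.1 and 40.6 CPM in VP64-MyoD cells, 29.0 and 28.2 CPM in WT-MyoD cells and 21.2 and 21.0 CPM in untreated cells, with the 3 groups apart. Between the forms 5 cycle genes, or 38.5%, were higher and 3, or 23.1%, lower with VP64-MyoD. The lower share is near the 28.2% of all features.

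Of 22 genes of import and carriers, 14 were higher and 3 lower with VP64-MyoD than in untreated cells, 4 were higher and 4 lower with WT-MyoD, and between the forms 17 were higher and 2 lower with VP64-MyoD. HSPA9, the matrix chaperone that pulls in imported proteins, had 374 and 373 CPM in VP64-MyoD cells, 202 and 194 CPM in WT-MyoD cells and 341 and 365 CPM in untreated cells. It was lower with WT-MyoD than in untreated cells (log2 fold change -0.83, SE 0.06), and the VP64-MyoD value of 0.08 was not called. The translocase gene TIMM23 and the porin gene VDAC3 were higher with VP64-MyoD than in untreated cells, with log2 fold changes of 0.84 and 0.85. Of 77 mitochondrial ribosome genes, 47 were higher and 1 lower with VP64-MyoD than in untreated cells, 11 were higher and 2 lower with WT-MyoD, and between the forms 37 were higher and 3 lower with VP64-MyoD. MRPS6, of the small ribosomal subunit, had 26.3 and 25.5 CPM in VP64-MyoD cells, 27.7 and 21.3 CPM in WT-MyoD cells and 10.5 and 8.91 CPM in untreated cells and was high with both forms. MRPS28 and MRPL32 followed among the changes with VP64-MyoD over untreated, at 1.19 and 0.90.

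Among 18 regulators of mitochondrial biogenesis, 16 were tested. With VP64-MyoD 7 of them, or 43.8%, rose and 1 fell relative to untreated cells, against 33.0% and 30.0% of all features. With WT-MyoD 4 were higher and 2 lower, and 4 of 16 is near the 25.7% of all features. PPARGC1A, PPARGC1B, NRF1 and TFAM were among the 7. PPARGC1A, the coactivator PGC-1alpha that drives mitochondrial biogenesis in muscle, had 0.301 and 0.153 CPM in VP64-MyoD cells, 1.41 and 1.95 CPM in WT-MyoD cells and 0.0401 and 0.0909 CPM in untreated cells. It was highest in the WT-MyoD libraries, through which alone it passed the filter, and the 3 groups did not overlap. The related PPARGC1B had 1.93 and 1.53 CPM in VP64-MyoD cells, 1.84 and 1.65 CPM in WT-MyoD cells and 0.240 and 0.0454 CPM in untreated cells. Both forms lay above untreated, with fitted log2 fold changes of 3.52 for VP64-MyoD and 3.54 for WT-MyoD. The difference between the forms was not called (log2 fold change -0.02, SE 0.30). PPARGC1B had few untreated reads and passed the filter through the MyoD libraries alone, so these folds over untreated are uncertain. The calls of PPARGC1A and PPARGC1B among the 7 thus depend on a filter passed only where these genes were high. PPARGC1A lost its VP64-MyoD over untreated call without VP64-MyoD replicate 1 or untreated replicate 1 or replicate 2. The call was also lost with limma-voom, with halved counts or with a replicate block (adjusted p between 0.056 and 0.0782 in these fits of all 6 libraries). Over the alternatives the PPARGC1B values lay between 2.83 and 5.17 for VP64-MyoD and between 2.85 and 5.19 for WT-MyoD. Both genes were near 0 in untreated cells, where PPARGC1A had too few reads for a fold.

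NRF1, a factor that binds many respiratory chain promoters, had 16.1 and 15.7 CPM in VP64-MyoD cells, 14.9 and 13.8 CPM in WT-MyoD cells and 13.4 and 12.3 CPM in untreated cells and was higher with VP64-MyoD than in untreated cells (log2 fold change 0.30). TFAM, the packaging and transcription factor of mitochondrial DNA, had 23.9 and 26.6 CPM in VP64-MyoD cells, 21.3 and 20.1 CPM in WT-MyoD cells and 20.2 and 21.7 CPM in untreated cells and was higher with VP64-MyoD than in untreated cells (0.27) and than in WT-MyoD cells (0.28). TFB1M and TFB2M were also higher in VP64-MyoD than in WT-MyoD cells, at 0.59 and 0.55. GABPA, an ETS factor, was lower with VP64-MyoD than in untreated cells (log2 fold change -0.17). ESRRA, an orphan nuclear receptor that works with PGC-1alpha, was higher (0.22) and YY1 lower (-0.18) with WT-MyoD than in untreated cells. PPRC1 was not called in any comparison. NRF1 lost its VP64-MyoD over untreated call without VP64-MyoD replicate 1 or untreated replicate 2 (adjusted p between 0.066 and 0.101). The TFAM call for VP64-MyoD over untreated was lost without VP64-MyoD replicate 2 or untreated replicate 1 or from the top transcript alone (adjusted p between 0.106 and 0.185). The VP64-MyoD over WT-MyoD call of TFAM was lost without VP64-MyoD replicate 2 or from the top transcript alone (adjusted p between 0.0795 and 0.164). The VP64-MyoD over untreated call of GABPA was lost without VP64-MyoD replicate 1 or replicate 2 or untreated replicate 1 or replicate 2 (adjusted p between 0.0719 and 0.147). ESRRA lost its WT-MyoD over untreated call without VP64-MyoD replicate 1 or replicate 2, WT-MyoD replicate 2 or untreated replicate 2, with DESeq2 or in a fit of 2 groups alone (adjusted p between 0.0578 and 0.311). The YY1 call for WT-MyoD over untreated was lost without VP64-MyoD replicate 1 or replicate 2, WT-MyoD replicate 1 or untreated replicate 2, with DESeq2 or in a fit of 2 groups alone (adjusted p between 0.0593 and 0.379).

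The cytosolic ribosome is made by a nuclear gene set outside mitochondria. In WT-MyoD cells 1 of 79 tested genes was higher and 67 were lower against untreated cells, at a median log2 fold change of -0.38. Of all features, 25.7% were higher and 22.2% lower. With VP64-MyoD 17, or 21.5%, rose and 8, or 10.1%, fell relative to untreated cells, with a median of 0.03. Both shares were below the 33.0% and 30.0% of all features. Relative to WT-MyoD cells, 72 were higher and 0 lower with VP64-MyoD, with a median of 0.41, against 28.4% and 28.2% of all features. RPS24 had 90.4 and 97.1 CPM in VP64-MyoD cells, 58.2 and 51.4 CPM in WT-MyoD cells and 84.2 and 73.7 CPM in untreated cells, so the WT-MyoD libraries were lowest. RPL35 had 78.4 and 74.9 CPM in VP64-MyoD cells, 41.8 and 43.0 CPM in WT-MyoD cells and 43.4 and 43.2 CPM in untreated cells and was high only in VP64-MyoD libraries. In the VP64-MyoD over WT-MyoD comparison, the medians were 0.40 for the respiratory chain genes and 0.41 for the ribosome genes. Against untreated cells the medians with VP64-MyoD were 0.44 for the respiratory chain genes and 0.03 for the ribosome genes. The lists' medians were not tested against each other.

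**Figure D4:**
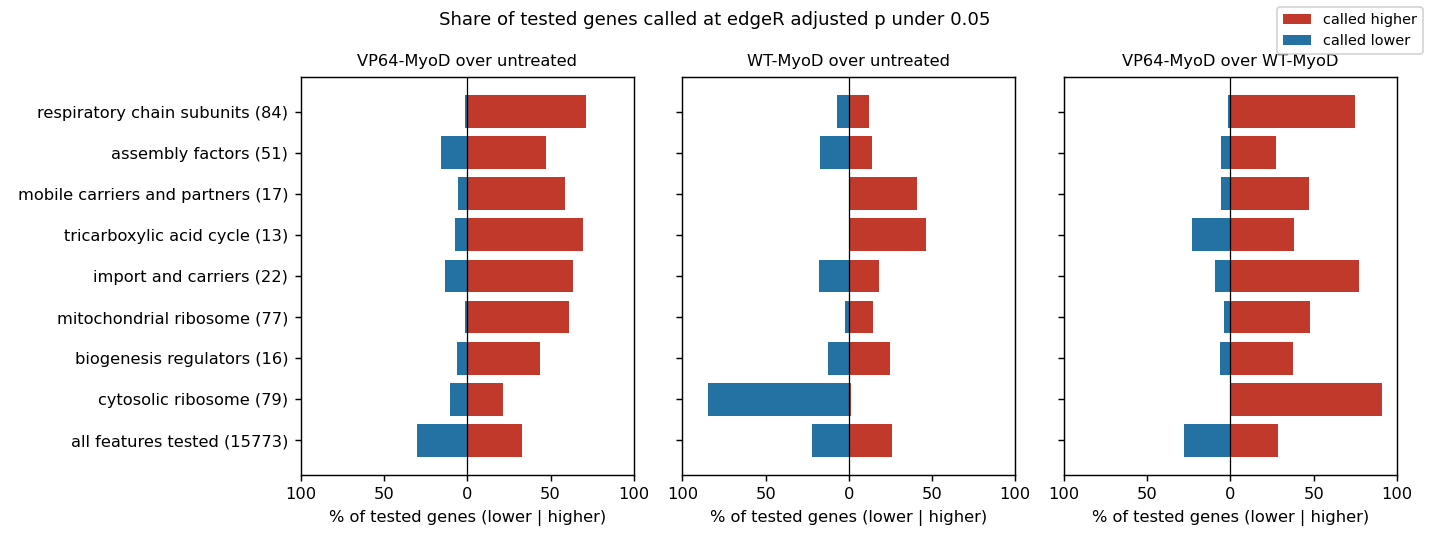
Percent of tested genes of each list called higher (right of 0, red) or lower (left of 0, blue) in the 3 comparisons, with the number tested in brackets and all features at the bottom. Respiratory chain genes are mostly higher with VP64-MyoD against both untreated and WT-MyoD cells, and cytosolic ribosome genes are mostly lower with WT-MyoD than in untreated cells.

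Promoter motifs were counted over genes with at least 1 window of 300 bases. The E-box form CAGCTG occurred in 16 of 71 respiratory chain genes, or 22.5%, near the 21.1% of all 27305 genes with a window. The ETS core occurred in 21 of 71, or 29.6%, against 12.2% of all genes, and the NRF1 core in 14 of 71, or 19.7%, against 4.74%. The tested genes with an E-box, 15 in all, had a median log2 fold change of 0.57 with VP64-MyoD over untreated, and the 54 without had 0.38. For the ETS core the medians were 0.34 with it and 0.47 without, and for the NRF1 core 0.47 with it and 0.42 without. These are descriptions of letters in a window and were not tested. The muscle isoform COX6A2, with an E-box, and SDHD, with all 3 motifs and no call in any comparison, both hold CAGCTG in the sequences shown.

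Of the 5 genes left out, the readthrough gene NDUFC2-KCTD14 had 5.07 and 6.41 CPM in VP64-MyoD cells, 4.91 and 4.67 CPM in WT-MyoD cells and 4.57 and 4.00 CPM in untreated cells. It shares sequence with NDUFC2, so its reads are uncertain. NDUFA6-DT, a divergent RNA, had 1.76 and 1.91 CPM in VP64-MyoD cells, 3.32 and 3.26 CPM in WT-MyoD cells and 2.77 and 4.04 CPM in untreated cells, and was lower in VP64-MyoD than in WT-MyoD cells (-0.84 on the log2 scale with SE 0.21, edgeR adjusted p = 0.00288). Its neighbour NDUFA6, encoding a complex I subunit, had 13.3 and 15.2 CPM in VP64-MyoD cells, 11.4 and 10.4 CPM in WT-MyoD cells and 11.1 and 10.1 CPM in untreated cells and was higher in VP64-MyoD than in WT-MyoD cells (log2 fold change 0.39). NDUFA6 lost its VP64-MyoD over WT-MyoD call without VP64-MyoD replicate 2 (adjusted p = 0.0996). The libraries do not mark the strand.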

How the data were processed

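Polyadenylated RNA of 6 libraries, 2 for each of 3 groups, was made into Nextera libraries and sequenced on a HiSeq 2000, per the labels' protocols. CASAVA, Bowtie 0.12.9, DESeq 1.10.1 and build hg19 are named in the submitters' processing notes. The deposited table holds whole-number counts per RefSeq transcript, not normalized. All its values are even, from which 2 counts were taken as 1 read pair. Of 40710 rows, 39324 were matched to a symbol through RefSeq and 526 through GENCODE release 29, and counts were summed per symbol. The 859 rows without a symbol, between 0.601% and 0.743% of a library's counts, were kept as single features.

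Tests used edgeR 4.0.16 in R 4.3.3: TMM scaling, filterByExpr (minimum count 10, minimum total 15), 1 quasi-likelihood fit of the 6 libraries with 3 residual degrees of freedom, two-sided, with Benjamini-Hochberg adjustment over all 15773 features and calls at 0.05. Since all cells came from 1 line, p-values cover only the spread between its cultures. Alternatives were RLE size factors, DESeq2 1.42.0, limma-voom (limma 3.58.1), no filter, halved counts, 2 groups alone, a replicate block, the top transcript per gene and leaving out each library. Genes with per-library values were every tissue isoform with its counterpart, the extremes of each complex, the SDH genes with CYC1, members called in opposite directions, and, chosen after their values were seen, further members named as examples. Other lists are named by up to 3 members with the greatest changes and a set of regulators. The members and lists were chosen with earlier results of these data known. Levels are not compared between genes, since lengths were not used. The single-gene values of 1 member are not reported here. A second deposited table of comparisons was not used here.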

Additional observations from a re-analysis of the deposited data

Results flagged for a closer look

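COX4I1 was called in opposite directions against untreated cells, higher with VP64-MyoD and lower with WT-MyoD, and the difference between the forms was itself tested (VP64-MyoD over WT-MyoD log2 fold change 0.391, edgeR adjusted p = 0.000208, with both VP64-MyoD libraries above both WT-MyoD libraries). That difference stayed between 0.309 and 0.464 over the alternatives run, whereas the call lower with WT-MyoD than in untreated cells was lost under 10 of 14 alternatives.

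The readthrough gene NDUFC2-KCTD14, which is outside the respiratory chain genes, was higher with VP64-MyoD than in untreated cells (log2 fold change 0.423, edgeR adjusted p = 0.0239). NDUFC2 itself was not called there (log2 fold change 0.15), and reads shared between them were not told apart.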

How the results depend on the processing

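With VP64-MyoD over untreated, the number of respiratory chain genes that were higher lay between 49 and 64 over all alternatives (60 in the design), and over WT-MyoD between 45 and 68 (63 in the design). The medians of the log2 fold change lay between 0.373 and 0.501, and between 0.313 and 0.483. With WT-MyoD over untreated, leaving out 1 library gave between 2 and 22 higher genes (10 in the design) and between 2 and 11 lower genes (6 in the design), and the median lay between -0.039 and 0.113, so its sign changed with single libraries. DESeq2 called 3 genes lower there. With VP64-MyoD over untreated, 2 genes were lower in the fit of 2 groups alone, and between 1 and 2 when 1 library was left out, with 2 without WT-MyoD replicate 1 or replicate 2. With VP64-MyoD over WT-MyoD, between 0 and 1 genes were lower when 1 library was left out, with 0 without VP64-MyoD replicate 1 or replicate 2. The causes of these shifts were not tested. Counts over all features stayed within 1.5 times. In the counts that follow, a value was reversed only if its sign changed and it was called in the main or the alternative fit. Uncalled values that changed sign were counted as kept. NDUFB9 with WT-MyoD over untreated, for example, lay between -0.23 and 0.191. Of 3528 values of the 84 genes under the alternatives, 3310 kept their side of the threshold, 144 lost a call, 74 gained one and 0 reversed. Of 2183 values of 52 other list genes, 2080 kept their side, 87 lost a call, 15 gained one and 1 reversed, the VP64-MyoD over untreated value of RPS24, at -0.042 from the top transcript alone.

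Groups share replicate numbers, and deviations of same-numbered libraries correlated at -0.005 (VP64-MyoD and untreated), 0.064 (WT-MyoD and untreated) and -0.03 (VP64-MyoD and WT-MyoD) over 13427 genes. A correlation near 0 over all these genes cannot exclude that the numbers pair the samples. Library 1 was above library 2 in 74 of the 84 respiratory chain genes with WT-MyoD and in 69 in untreated cells, but in 33 with VP64-MyoD. A fit with a replicate block called 63 genes higher and 1 lower for VP64-MyoD over untreated, 9 higher and 7 lower for WT-MyoD over untreated, and 66 higher and 1 lower for VP64-MyoD over WT-MyoD. With 1 library left out, the remaining library of its group is assumed to vary like the other groups. Genes at few counts, such as ATP5MGL, PPARGC1A and PPARGC1B in untreated cells, are limited by depth.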
